A study of Mus musculus with 19 samples.

Results

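Chromosome 8 (Chr8) of the mouse was followed here along its length in 10 liver tumors and 9 unaffected livers. It was chosen by its measured aCGH ratios, which were high in hepatocellular adenomas (HCA) and low in hepatocellular carcinomas (HCC), and the position at which it was divided, base 90500000 on mm9, was set by a step in the profile of 1 adenoma. The tumor values below are therefore a description, and no test was run on the contrast between HCA and HCC, on tumors against liver, or on the sides of the split in tumors. Members were all 11378 probes whose position in the array design lies on Chr8, from 3111085 to 131735303, out of 221455 autosomal probes. They were averaged in 27 regions of 5 Mb among 502 such regions on the 19 autosomes, with 18 regions (7338 probes) placed below the split and 9 (4040 probes) above it. The region from 90 to 95 Mb, which holds the split, was counted above it, while the averages of each side divided the probes at the split itself.

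The study asked how much chromosomal instability tumors carry when hepatocytes lack the spindle checkpoint protein Mad2. All mice were Mad2(f/f) with AlbuminCre, a Cre recombinase driven by the albumin promoter, so that deletion was directed to hepatocytes and the other cells of the liver kept the gene. The 4 HCAs came from 4 females of the p53flox strain, aged 12 to 16.9 months, of which mice 2430 and 6199 were p53(f/f) and mice 5884 and 5901 were p53(f/+). The 6 HCCs came from 5 mice of the strain labeled p53ser249, with the genotype given as p53ser246+ and an age of 12.3 to 16.2 months. Mouse 6240 gave 2 HCCs, and 3 of the 6 HCCs were from females. The unaffected liver of each of the 9 mice was measured as well, 4 of the p53flox strain and 5 of the p53ser249 strain. Control DNA on every array came from the liver of a mouse of the opposite sex and the same mixed background without these alleles. Since every HCA was p53flox and every HCC was p53ser249, tumor type and p53 genotype cannot be told apart.

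In aCGH, DNA of a sample and DNA of a control compete for the same probes, and the log2 of their ratio follows the relative dose of each region. The spindle checkpoint delays chromosome separation until every chromosome is attached to the spindle, so cells without it can gain or lose chromosomes whole. A gain or loss of an entire chromosome shifts all of its probes together, whereas a break within the chromosome leaves a step between a proximal and a distal part. The ratio is an average over the cells of the sample, and a change in fewer cells cannot be told apart from a smaller change per cell.

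RefSeq (GRCm38.p6) places 1043 protein-coding genes on Chr8, and all of the 42 genes of growth control, signaling and liver function that were listed for this chromosome were among them. The order of these genes was read from RefSeq, but their positions were not transferred to the mm9 coordinates of the arrays, so no gene was given a ratio or a side of the split. Near the centromere lie the insulin receptor Insr (first in the order), the insulin receptor substrate Irs2 (gene 48) and the coagulation factors F7 and F10 (genes 65 and 66). Dlc1, named for its deletion in liver cancer, is gene 267, and the lipoprotein lipase Lpl is gene 400. Heme oxygenase Hmox1 is gene 537, the deubiquitinase Cyld gene 662 and the metallothionein Mt1 gene 694. E-cadherin, encoded by Cdh1, is gene 820, the tyrosine aminotransferase Tat gene 852, and the angiotensinogen gene Agt, at the distal end, gene 1010.

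The ratio of the X chromosome, which differs in dose between the sexes, gave the scale of the measurement. In unaffected livers it was between 0.89 and 1.04 in the 6 females and between −1.02 and −0.90 in the 3 males, near the log2 value of 1 for a doubled dose. On this scale a single extra copy in every diploid cell would be 0.58, the log2 of 3/2. All Chr8 averages of the HCAs and the HCCs were smaller than that. Chr8 probes were measured at 1.84 to 4.80 times the local background in the sample channel (Cy5) and at 3.05 to 4.90 times in the control channel (Cy3). Neighboring Chr8 probes differed with a noise of 0.19 to 0.43 on the log2 scale. The liver of mouse 6240 stood apart, with the highest noise (0.43) and a spread (SD) of 0.11 over its 19 autosomes, against 0.016 to 0.067 in the other 8 livers.

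Chr8 was high in HCA, along its whole length in 3 of the 4 tumors and below the split only in the other. The mean log2 ratio of the chromosome was 0.14 in the HCA of mouse 2430, 0.026 in that of mouse 5884, 0.22 in that of mouse 5901 and 0.12 in that of mouse 6199, or 0.13 ± 0.082 (SD, n = 4). The HCCs had −0.309, −0.094, −0.031, −0.027, −0.025 and −0.011 in mice 6487, 6602, 6240 (tumor 2), 6240 (tumor 4), 6642 and 6565, or −0.083 ± 0.11 (SD, n = 6). Every HCA was above every HCC, but the lowest HCA and the highest HCC were only 0.037 apart. HCC minus HCA was −0.21, and it was −0.12 on the median signals without background correction and −0.13 after normexp correction. The 9 unaffected livers were between −0.131 and 0.046 with a median of 0.0043, or −0.0091 ± 0.052 (SD, n = 9). The HCA of mouse 5884 was within this range, as were all HCCs other than that of mouse 6487. The lowest liver was that of mouse 6240, which stood apart, and without it the livers were between −0.046 and 0.046, so that the HCC of mouse 6602 was below them too.

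The average over the chromosome hid a difference between its sides. Below the split the ratio was 0.13, 0.14, 0.22 and 0.11 in the HCAs of mice 2430, 5884, 5901 and 6199, or 0.15 ± 0.047 (SD, n = 4), a narrower spread than for the whole chromosome. In HCC it was between −0.313 and −0.014 with a median of −0.030, or −0.084 ± 0.12 (SD, n = 6). The groups did not overlap there and the gap between them was 0.13. This gap was not among the values recomputed under other processing. In the HCA of mouse 5884 the level below the step was 0.064 on the median signals without background correction and 0.029 after normexp correction. Above the split the HCAs had 0.15, −0.18, 0.24 and 0.13 in the same order, or 0.086 ± 0.18 (SD, n = 4), and the HCCs had −0.301 to −0.0022 with a median of −0.039, or −0.080 ± 0.11 (SD, n = 6). The HCA of mouse 5884 was below 5 of the 6 HCCs in this part, so that the groups overlapped. Without it the 3 remaining HCAs had 0.17 ± 0.055 (SD, n = 3) above the split and 0.15 ± 0.057 (SD, n = 3) below it.

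**Figure D1:**
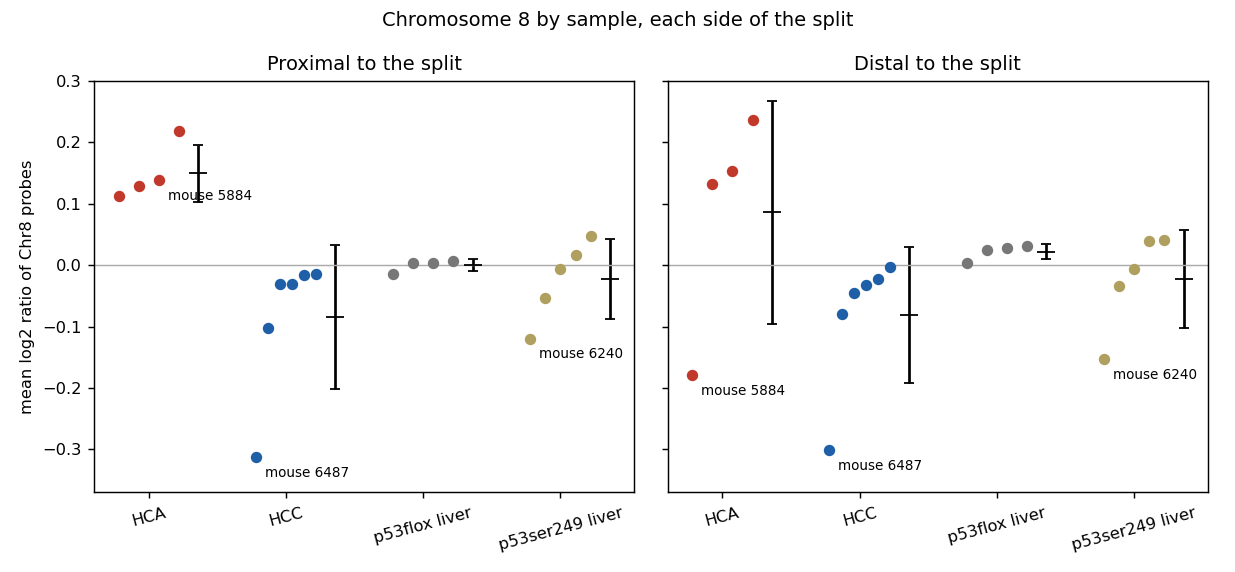
Mean log2 ratio (vertical axis) of the Chr8 probes below the split (left) and above it (right) for each HCA, HCC, p53flox liver and p53ser249 liver; points are single arrays, and the bars are the group mean and SD. The HCA of mouse 5884 sits with the other HCAs at 0.14 on the left and at −0.18 on the right, and the HCC of mouse 6487 is the lowest tumor on both sides.

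The same was seen region by region. Every HCA was above every HCC in 18 of the 18 regions below the split and in 0 of the 9 above it. Over all autosomes this order was found in 28 of the 502 regions (5.58%), and 18 of those 28 were on Chr8. The chromosome was chosen for this contrast, and the count is given as a description. The gap between the lowest HCA and the highest HCC was widest from 45 to 50 Mb (0.14) and narrowest from 50 to 55 Mb (0.0072). In the latter region the highest HCC was that of mouse 6642, at 0.051, and the lowest HCA that of mouse 6199, at 0.058.

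The HCA of mouse 5901 carried the highest ratios, between 0.14 and 0.28 in all 27 regions, and each of the 27 was above every unaffected liver, against 30.3% of all 502 regions in this tumor. Its lowest region was that from 5 to 10 Mb. The HCA of mouse 6199 had 0.034 to 0.18, also above every liver in 27 of 27 regions (33.5% of all regions). In the HCA of mouse 2430 the regions had 0.036 to 0.22, and 26 of 27 exceeded the livers (39.6% of all regions). Its exception was the region from 40 to 45 Mb, where its ratio was 0.036 and the highest liver had 0.070. In all 3 tumors the regions on both sides of the split were positive, and above minus below was 0.018 to 0.025.

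Among the HCCs the ratio was lowest in that of mouse 6487. It had −0.38 to −0.24 over the 27 regions, all below every liver (26.9% of all regions in this tumor), and its sides were alike, with −0.313 below the split and −0.301 above it. The HCC of mouse 6602 was negative in 27 of 27 regions (−0.19 to −0.025), against 56.4% of all regions. Of these, 6 were below every liver, a smaller share than the 37.1% over all its regions. In 24 of the 27 regions the lowest liver was that of mouse 6240, the array that stood apart. Without it, 25 of the 27 regions of this HCC were below every liver (41.4% of all regions), and all 27 of the HCC of mouse 6487 (30.5%).

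The other 4 HCCs were near 0. Both HCCs of mouse 6240 had negative ratios in most regions, 24 of 27 in tumor 4 and 25 of 27 in tumor 2, beside 57.6% and 73.1% of all their regions, and neither had a region outside the range of the 9 livers. Without the liver of mouse 6240, 6 regions of tumor 4 (45.2% of all regions) and 9 of tumor 2 (30.5%) were below every liver. The HCC of mouse 6565 was positive in 10 of 27 regions, near its share of 41.8% over all regions. In the HCC of mouse 6642, 3 regions were above every liver (35.5% of all regions). Without the liver of mouse 6240, 8 of its regions were below every liver (33.1%).

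**Figure D2:**
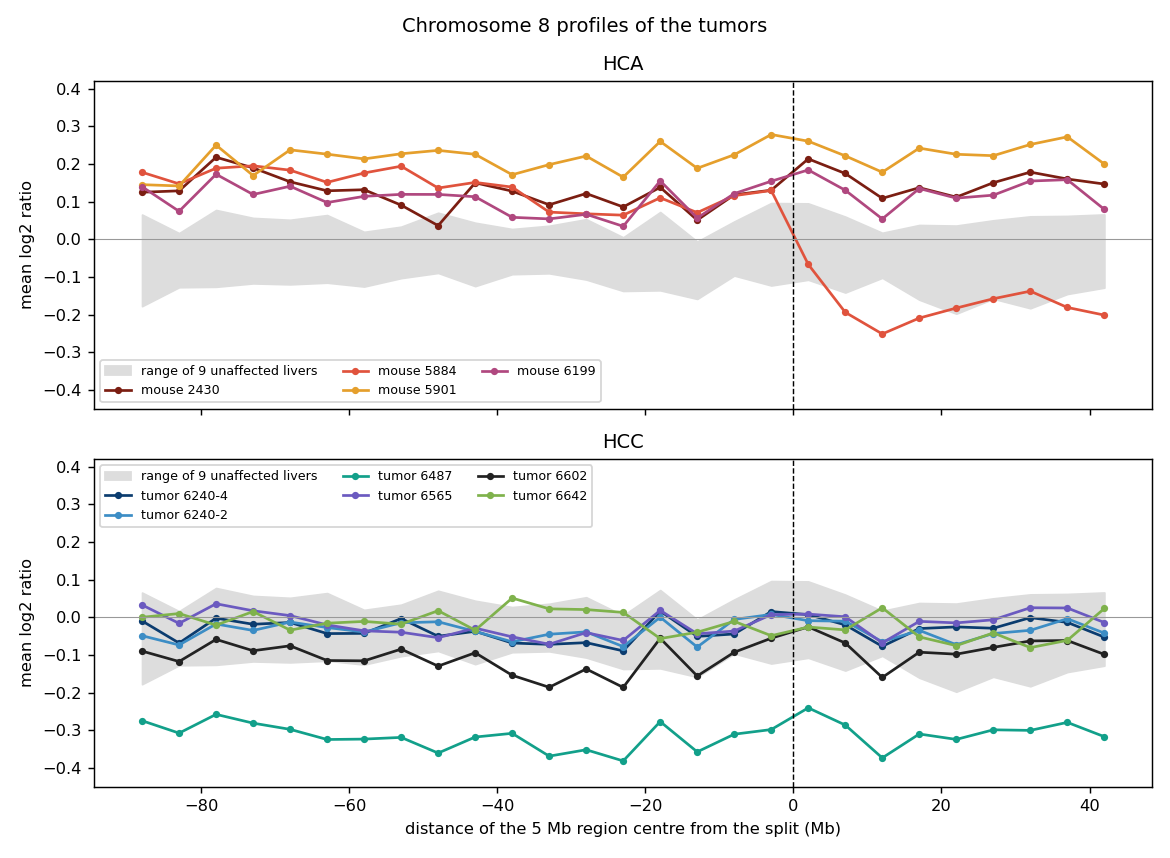
Mean log2 ratio (vertical axis) of the 27 regions of 5 Mb against their distance from the split in Mb (dashed line), with 1 line per HCA (top) or HCC (bottom); the gray band runs from the lowest to the highest of the 9 unaffected livers. In the HCA of mouse 5884 the ratio passes from 0.13 in the last region below the split to −0.19 in the second region above it, and the HCC of mouse 6487 lies below the band throughout.

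The size of the HCC mean depended on the tumor of mouse 6487. Without it the mean was −0.038 ± 0.032 (SD, n = 5), with all 5 tumors negative, and HCC minus HCA was −0.165. With both HCCs of mouse 6240 averaged, HCC minus HCA was −0.22. The 3 HCCs from females, which included both tumors of mouse 6240, had −0.051 ± 0.038 (SD, n = 3). The 3 from males, which included that of mouse 6487, had −0.12 ± 0.17 (SD, n = 3). An exact test of 3 against 3 cannot go below p = 0.10, and none was run. Among HCAs, the p53(f/f) tumors had 0.14 and 0.12 and the p53(f/+) tumors had 0.026 and 0.22, so the values of 1 genotype lay between those of the other.

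Chr8 was neither the highest nor the lowest of the 19 autosomes in any of the 10 tumors. Counted from the highest ratio, it was number 6, 9, 3 and 7 in the HCAs of mice 2430, 5884, 5901 and 6199. In the HCCs it was number 10 to 17, with 17 in mouse 6487 and 14 in mouse 6602.

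The step in the HCA of mouse 5884 was the reason for the split. Its ratio was 0.14 below the split and −0.18 above it, a difference of −0.32. In the 18 other arrays the same difference was between −0.033 and 0.042, and it was 7.9e-05 in the liver of mouse 5884 itself. When the profile of each array was divided at the position that gave the best fit of 2 levels, the position in this tumor was between 90.57 and 90.58 Mb. The best step in any of the 18 other arrays was 0.017 to 0.11 in size. The largest was in the HCA of mouse 5901 near 8.48 Mb, where the ratio passed from 0.12 to 0.23. The unaffected liver of mouse 5901 rose there too. In 2 Mb stretches centered at −83 and −81 Mb from the split, that liver had −0.135 and 0.021 and the tumor 0.089 and 0.23.

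Probes next to the split showed how closely the step was placed. The 20 probes just below it (chr8:90345416-90495727, mm9) had a mean of 0.12 in the HCA of mouse 5884, and the 20 just above it (chr8:90505200-90681056, mm9) had −0.16. With 100 probes on each side the means were 0.18 and −0.11, a change of −0.29, and in the 18 other arrays the change was between −0.046 and 0.070. With only 20 probes the other arrays ranged from −0.17 to 0.099, so noise over such a short stretch was not small. In steps of 1 Mb, the tumor had 0.19 in the last step below the split and −0.10 in the first above it. It was positive in all 10 steps below and negative in all 10 above. When the liver of the same mouse was subtracted, the best position was 90.38 Mb, and with loess normalization it was 90.48 Mb. The step was −0.29 after loess, against −0.32 without it. Its size depended on the background correction, with −0.14 on the median signals without background correction and −0.034 after normexp correction. The position stayed within 90.38 to 90.58 Mb.

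**Figure D3:**
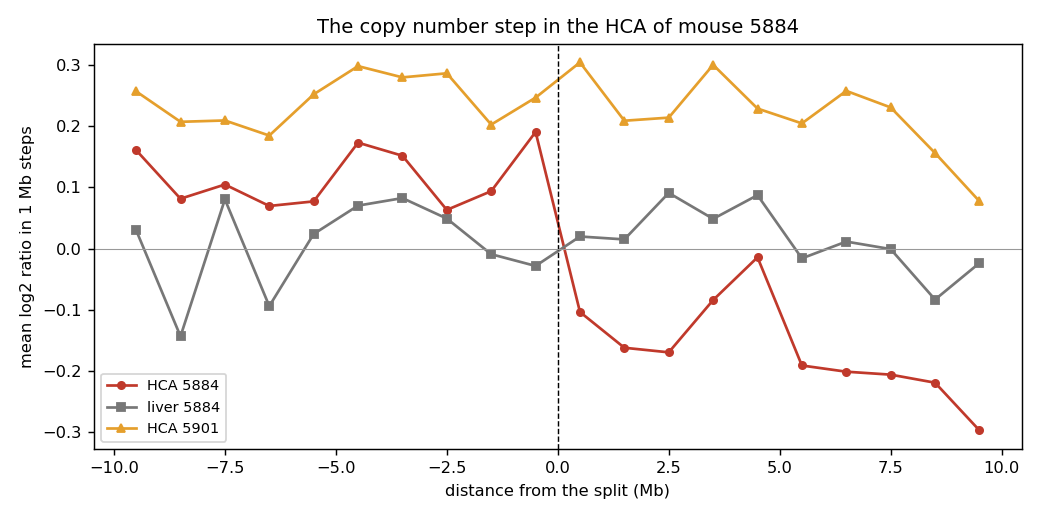
Mean log2 ratio (vertical axis) in steps of 1 Mb against the distance from the split in Mb, for the HCA of mouse 5884, the unaffected liver of the same mouse and, for comparison, the HCA of mouse 5901. The first tumor passes from 0.19 to −0.10 across the dashed line, and the HCA of mouse 5901 stays above 0 over the whole stretch.

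Beside the step there was little local structure. In windows of 20 probes, with the mouse's own liver subtracted, a departure of more than 0.3 from the neighboring windows was found in 10 of the 5680 Chr8 windows of the 10 tumors. Over all autosomes the share was 0.153% of 110630 windows. Of the 10, 4 were in the HCA of mouse 5884, including the windows centered at 90.28 and 90.64 Mb on either side of the step, and 3 in the HCC of mouse 6602. The HCAs of mice 2430 and 5901 and the HCC of mouse 6487 had 1 each. The largest departure was −0.39, at 95.65 Mb in the HCA of mouse 5884.

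The shape of the profile within each side was shared by most arrays. With the mean of each side removed, regions differed with an SD of 0.021 to 0.047. The correlation of these 27 values with the mean of the livers of other mice was between 0.35 and 0.92 in 17 of the 19 arrays. It was −0.53 in the HCC of mouse 6642 and −0.29 in the liver of mouse 6240. These correlations are over regions that share probes across arrays, and they describe a common waviness. From the region at 65 to 70 Mb to the next one, for example, the group means passed from 0.087 to 0.17 in HCA, from −0.13 to −0.059 in HCC and from −0.053 to 0.011 in the livers.

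**Figure D4:**
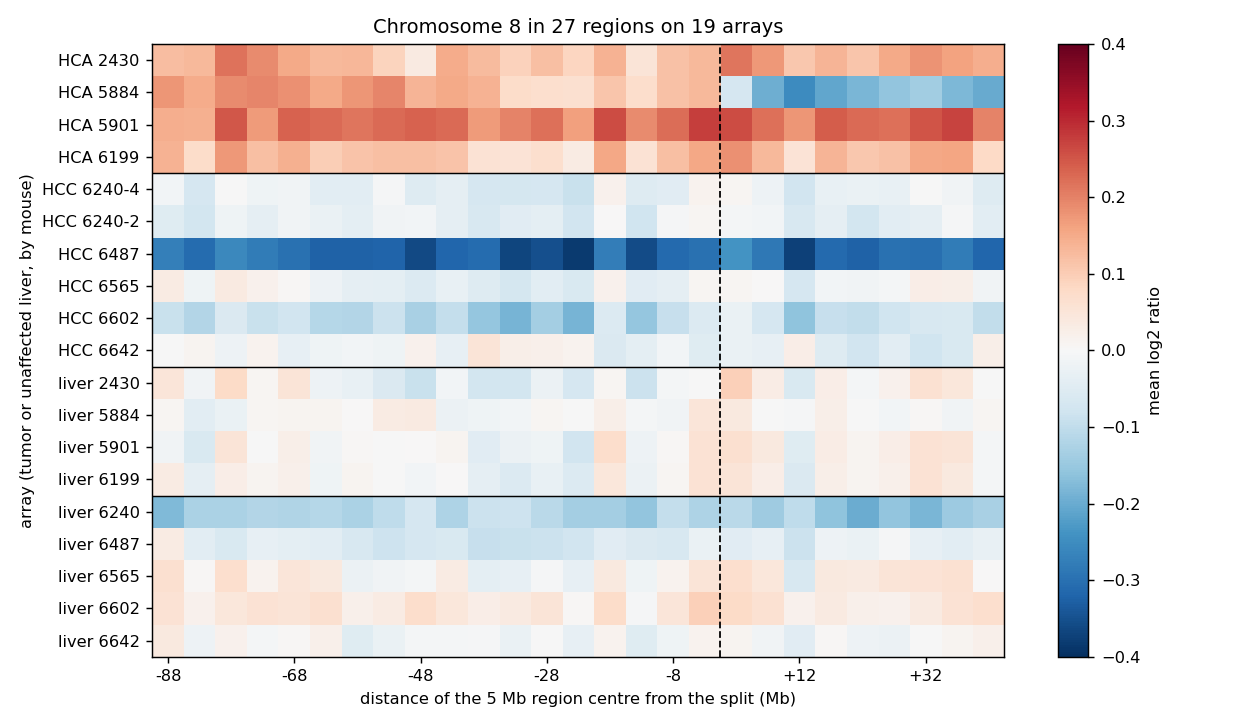
Mean log2 ratio (color) of the 27 Chr8 regions (columns, by distance of their center from the split in Mb) on the 19 arrays (rows: 4 HCAs, 6 HCCs, 4 p53flox livers and 5 p53ser249 livers). Red rows are the HCAs, with the step of mouse 5884 at the dashed line, and the darkest blue row is the HCC of mouse 6487.

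The larger shifts were in the channel of the sample. Relative to the mean of the livers, the sample channel on Chr8 was 0.13, 0.22 and 0.12 in the HCAs of mice 2430, 5901 and 6199. It was −0.28 and −0.10 in the HCCs of mice 6487 and 6602, and −0.12 in the unaffected liver of mouse 6240. The control channel was within −0.015 to 0.027 in all 19 arrays. In the HCCs with ratios near 0 both channels moved little, with 0.0097 (sample) and 0.018 (control) in mouse 6565 and −0.0062 and 0.0093 in mouse 6642. In mouse 6240 the channels had −0.017 and 0.0024 in tumor 4 and −0.015 and 0.0083 in tumor 2.

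Comparison with the liver of the same mouse gave similar values for HCA and other values for HCC. In the HCAs the tumor was 0.14, 0.021, 0.21 and 0.11 above its own liver in mice 2430, 5884, 5901 and 6199, or 0.12 ± 0.078 (SD, n = 4). In mouse 5884 this was 0.13 below the split and −0.18 above it. The HCCs were between −0.262 and 0.10 relative to their own livers with a median of −0.028, or −0.042 ± 0.14 (SD, n = 6). The highest of these, 0.10 in both HCCs of mouse 6240, were above the 0.021 of the HCA of mouse 5884, so the groups overlapped here. These high values went with a low liver, since the liver of mouse 6240 had a Chr8 ratio of −0.131 and its tumors −0.027 and −0.031. Without mouse 6240 the HCCs had −0.11 ± 0.11 (SD, n = 4) relative to their livers.

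Unaffected livers of the strains were compared with a test, since their contrast was not used to choose the chromosome. Strain overlapped with sex and scan day in this contrast, and the test was not adjusted for either. All 4 p53flox livers were from females, against 2 females and 3 males in p53ser249. Of the p53flox livers, 3 were scanned on day 1 and 1 on day 2. Of the p53ser249 livers, 1 was scanned on day 2 and 4 on day 3. The p53flox livers had 0.00069, 0.0043, 0.015 and 0.011 in mice 2430, 5884, 5901 and 6199. The p53ser249 livers had −0.131, −0.046, 0.025, 0.046 and −0.0056 in mice 6240, 6487, 6565, 6602 and 6642. Of these, 3 were below and 2 above every p53flox liver, so the p53ser249 livers were spread on both sides. The difference, p53ser249 minus p53flox, was −0.030 (exact permutation test, two-sided, p = 0.50, adjusted p = 0.792 over 19 autosomes), and the share of autosomes past the threshold of 0.05 was 0%. The smallest p this design allows is 0.00794. The difference was −0.0031 without the liver of mouse 6240 and −0.0018 without centering. Above minus below was 0.00063 ± 0.023 (SD, n = 5) in the p53ser249 livers and 0.022 ± 0.017 (SD, n = 4) in the p53flox livers, a difference of −0.021 (exact permutation test, two-sided, p = 0.167). In the 27 regions, limma found 0 with an adjusted p below 0.05 and 0 with an unadjusted p below 0.05. Among all 502 regions 1 was called (0.199%), and 59 had an unadjusted p below 0.05. The lowest adjusted p on Chr8 was 0.457, from 90 to 95 Mb, where the p53ser249 livers minus the p53flox livers gave −0.062 ± 0.036 (SE).

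Arrays were scanned on 3 days, which overlapped with the groups. The HCAs of mice 2430 and 5884 were scanned on day 1, those of mice 5901 and 6199 and the HCC of mouse 6487 on day 2, and the other 5 HCCs on day 3. On day 2, the day that held both types, the HCA mean was 0.17 and the HCC had −0.309, a difference of 0.48. That HCC is the one with the lowest Chr8 ratio, and days 1 and 3 held a single tumor type each. With the scan day as a term in a linear model of all 19 arrays, HCC minus HCA was −0.36, and p53ser249 minus p53flox in the livers was −0.19 in place of −0.030. Both values rest on the few arrays of day 2. That model held tumors as well as livers, so −0.19 is not a difference between livers scanned on the same day. On day 2 the p53flox liver of mouse 6199 had 0.011 and the p53ser249 liver of mouse 6487 had −0.046. A fit of the livers alone with scan day as a block compares only these 2 livers, since days 1 and 3 held livers of a single strain each. It gave a median difference of −0.056 over the 27 Chr8 regions. Without the block that median was −0.024.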

How the data were processed

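Each of 4 HCAs, 6 HCCs and 9 unaffected livers was hybridized to an Agilent array of its own (19 in all), with sample DNA labeled in Cy5 and the control liver in Cy3. Per the file headers, Feature Extraction 10.5.1.1 wrote the deposited log10 ratio of each spot after background subtraction with spatial detrending and linear dye normalization, without lowess. The authors also deposited processed and median intensities, and a table of all samples that holds the same log10 ratios to within 5e-10.

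Control spots and outlier spots (0.0694% to 0.260% of the Chr8 spots) were left out, spots of a probe were averaged, and ratios were converted to log2 and centered on the autosomal median of the array. A region needed 20 probes. Chr8 was the mean of its probes (11352 to 11378 per array), and precision is limited by how few arrays a group has. Of the Chr8 spots, 98.6% to 99.96% were well above background in both channels. Livers of the 2 strains were tested by exact permutation, two-sided, over 126 regroupings, with Benjamini-Hochberg adjustment over 19 autosomes, and by limma 3.58.1 (R 4.3.3) over 502 regions. Other values were computed in Python 3.11.15, and the scripts were tested on simulated data.

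Tumors and livers were paired by mouse, as the labels give it. Over 19 autosomes, the deviations of a tumor and its liver from their group means correlated with −0.039 to 0.19 (median 0.11, above 0.1 in 6 of 10 pairs). Alternatives covered background correction (none, or normexp, offset 50), loess, centering, the summary, probe filters, the position of the split, females, scan day, pairing and the samples left out. Chr8, its split and its gene list were chosen with earlier results of these data known. The rule for naming genes was a list of Chr8 genes and those next to the split; the arrays' files name no genes and the gene table is of another build, so the list was given by order only and the genes next to the split were not named.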

Additional observations from a re-analysis of the deposited data

Results flagged for a closer look

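In 20 groups of values (Chr8, each side, their difference and the differences from the own liver), 6 held a sample far from the rest of its group. Chance flags about 1 in 20 groups, but the count cannot be read against that share, since the groups overlap and the chromosome and its split were chosen by these values. Of these, 2 concerned the HCA of mouse 5884, whose above minus below of −0.32 compared with 0.018 to 0.025 in the other HCAs, and with −0.017 to −0.0023 after subtraction of the own liver (again −0.32). The HCC of mouse 6487 accounted for 3, with −0.309 for the chromosome (other HCCs −0.094 to −0.011), −0.313 below the split (−0.10 to −0.014) and −0.301 above it (−0.080 to −0.0022). The last was the liver of mouse 2430 below the split, at −0.014 (other p53flox livers 0.0033 to 0.0063), a difference that was small beside the spread of the p53ser249 livers.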

How the results depend on the processing

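Chr8 in HCC minus HCA (−0.21) stayed negative under all alternatives run, between −0.36 and −0.12, and between −0.244 and −0.165 with each tumor left out. HCA minus liver (0.14) stayed positive at 0.080 to 0.21, and 0.10 to 0.17 with each sample left out. Scan day as a term of the linear model moved these values to −0.36 and 0.21. HCC minus liver (−0.074) turned to 0.0024 after normexp correction; with each sample left out it was −0.089 to −0.029, the latter without the HCC of mouse 6487. For above minus below, HCC minus HCA (0.067) was between −0.017 and 0.097 with each tumor left out, the negative value without the HCA of mouse 5884, and 0.0036 after normexp correction. The paired values, with each tumor set against the liver of its own mouse as a block, were −0.16 for HCC minus HCA, 0.12 for HCA, −0.042 for HCC and 0.095 for above minus below. In the livers, p53ser249 minus p53flox kept its sign for the Chr8 mean, with adjusted p between 0.543 and 1. For above minus below (−0.021) it turned to 0.0056 over the probes of lower spread, with exact permutation p between 0.0536 and 0.357 over the alternatives. Its largest change was to −0.078 with scan day as a term, for which no p was computed. In females only, 2 p53ser249 livers against 4 p53flox livers, it was −0.042 (exact permutation test, p = 0.0667). Of all autosomal regions, the 1 called became 3 with 2 Mb regions, 0 without background correction and 0 after normexp correction. With each liver left out it became 1 to 5 (5 without mouse 6240 and 2 without mouse 6642). In none of these was a called region on Chr8. With scan day as a block the fit compared only 2 livers, and no count is given for it. Without the liver of mouse 6240, an alternative chosen after seeing the data, the Chr8 regions below every liver passed from 6 to 25 in the HCC of mouse 6602. The cause of these changes was not tested. The low signal over background, 1.84 to 4.80 times in the sample channel, limits all ratios.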
